A study of Mus musculus with 6 samples.

Results

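Donor T helper cells of the Th17 kind were set against donor T helper cells of the Th1 kind, both recovered from the spleen 12 days after transfer into tumour-bearing mice. The comparison used the 2 arrays labelled Th17 and the 2 labelled Th1, 4 of the 6 arrays of the series, and every gene measured on them, chosen by these labels alone. The other 2 arrays, of Th9 cells, entered the normalization and the estimate of the spread, and their levels are given where they bear on a gene. All arrays share the strain label C57BL/6, sorting on CD4 and on CD45.1, an allele used to tell transferred cells from host cells, and spleen as the source of total RNA. How the cells were driven to each kind, the tumour, the age and sex of the mice and whether mice were pooled are not stated in the labels used here.

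T helper cells are CD4 lymphocytes that direct other immune cells. Th1 cells form under interleukin 12 and interferon gamma, rely on the transcription factor T-bet (Tbx21), make interferon gamma and carry the chemokine receptor Cxcr3. Th17 cells form under interleukin 6 with transforming growth factor beta, rely on Stat3 and nuclear receptors such as Rora, and make interleukin 17. Th17 cells are known to change after transfer and can lose interleukin 17, while keeping features of long-lived cells. What else differs between the kinds 12 days after transfer, in receptors, transporters, enzymes and signalling genes, is the question addressed here.

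Expression was read on Illumina bead arrays, on which each gene is a probe whose brightness follows the amount of its labelled RNA. The values quoted are the deposited intensities, which centre near 0 because a background had been subtracted. Of 45281 probes, 22460 exceeded the noise of the negative values on at least 2 arrays, and they gave 12093 named genes. Between 18581 and 20466 probes were detected per array. Mean intensity over all probes was 171 and 157 on the Th17 arrays, against 141 and 117 on the Th1 arrays. A gene whose normalized level did not differ therefore typically read brighter in Th17 cells: over the 6911 genes detected on all 4 arrays that did not pass the test, the median ratio of Th17 to Th1 intensity was 1.36. Differences are given as log2 changes of normalized values, Th17 minus Th1, with the standard error of the fit (n = 2 arrays per kind). The values carry an offset of 50 units, so the log2 change understates the difference of dim genes. The word repeat, with no animal or culture named, is all the labels give for the other array of a kind, so p-values measure only how these arrays vary, and that variation may be technical. The number of arrays limits the precision.

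The fit called 1807 of 12093 genes at a Benjamini-Hochberg adjusted p under 0.05 (limma), or 14.9%. Of these, 910 (7.53%) were higher and 897 (7.42%) lower in Th17 cells, and the median log2 change over all genes tested was 0.0045. This even split depends on the scaling, which made all arrays share 1 distribution. With each array scaled to its median 2492 genes were higher and 246 lower, and without scaling 2970 were higher and 212 lower. These settings moved the median of all genes to 0.15 and 0.19. Counts for gene lists below come from the shared distribution unless another scaling is named. They are to be read beside the 7.53% higher and 7.42% lower of all genes. Where no other scaling is named, whether a list keeps its direction is not stated. The Th17 and Th1 arrays did not overlap for 52.8% of genes tested, 27.2% with both Th17 arrays above and 25.6% with both below. A test against a log2 change of 0.5 called 224 genes, each changed by 0.896 or more. A setting that dropped the normexp background correction and its offset of 50 together and set values under 1 to 1 called 316 genes, and is named below as uncorrected values floored at 1. Correlation between arrays was 0.994 within Th17, 0.991 within Th1 and 0.976 to 0.979 between the kinds.

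The largest increase was in Myo6, an unconventional myosin that walks toward the minus end of actin filaments, with intensities of 1223.2 and 1216.9 in Th17 cells, against 43.1 and 40.5 in Th1 cells (log2 change 3.34 ± 0.12, adjusted p = 1.18e-13). St6gal1, the enzyme that caps N-glycans with alpha-2,6-linked sialic acid, stood at 2512 and 2110.5 in Th17 cells, against 165.9 and 198.5 in Th1 cells (log2 change 2.88 ± 0.13, adjusted p = 3.22e-12). Igfbp4, a secreted binding protein for insulin-like growth factors, was among the brightest probes, with 8002.3 and 7878.4 in Th17 cells, against 1413.7 and 1257.6 in Th1 cells (log2 change 2.19 ± 0.12, adjusted p = 4.04e-11). The largest decrease was in Nkg7, a granule membrane protein of cytotoxic cells, with 189.3 and 144.7 in Th17 cells, against 2383.5 and 1882.9 in Th1 cells (log2 change -3.62 ± 0.11, adjusted p = 6.55e-14). Serpine2, a secreted inhibitor of thrombin and other serine proteases, had 142 and 125.3 in Th17 cells, against 1396.1 and 1206.2 in Th1 cells (log2 change -3.14 ± 0.11, adjusted p = 7.51e-14). Plac8, a small cysteine-rich protein, had 523.7 and 512.8 in Th17 cells, against 4136.1 and 3668.9 in Th1 cells (log2 change -3.04 ± 0.11, adjusted p = 1.18e-13). In each of these 6 genes both Th17 arrays lay apart from both Th1 arrays by several-fold, and the arrays of a kind lay close together. They were taken from the largest changes with arrays not overlapping, so this separation followed from the choice. Among the 30 largest changes each way the increases also held Rgcc, Emp1, Cyp2s1, Hs3st3b1, Arhgef11, Ank and Tmem176b, and the decreases Dapk2, Adap1, Lrrk1, Igf2bp3, Ms4a6d and S100a1.

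**Figure D1:**
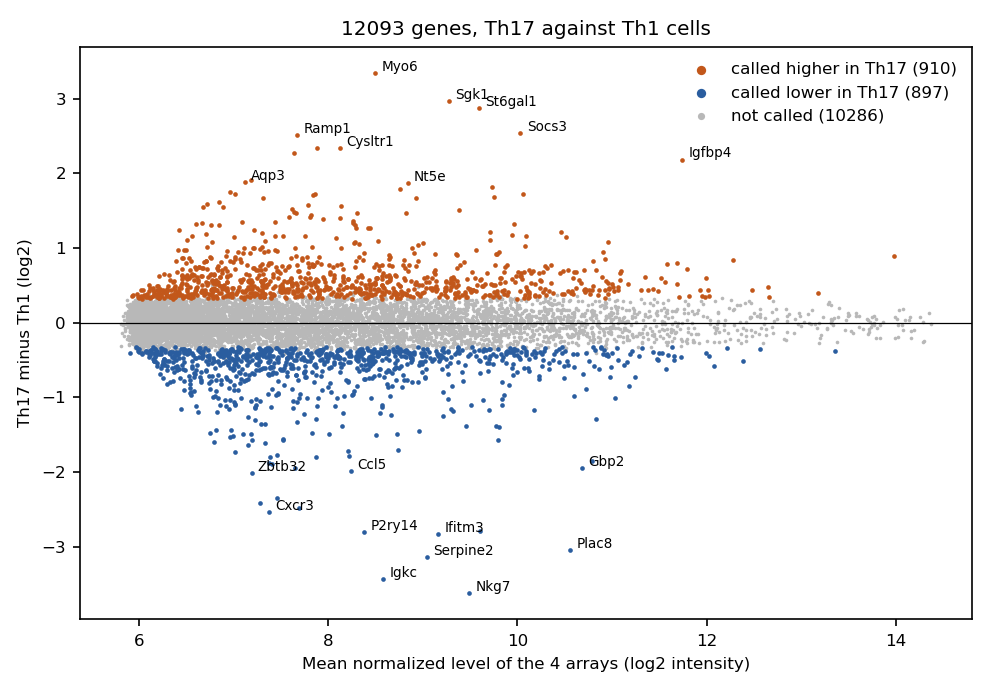
Each point is a gene, placed by its mean normalized log2 level over the 4 arrays (x axis) and its log2 change, Th17 minus Th1 (y axis), with genes that passed the test in colour. The 910 genes called higher and 897 called lower lie on both sides of 0 under this scaling, an even split that turns to mostly higher with each array scaled to its median or without scaling.

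Levels in Th9 cells placed these genes against the other kind of the series. Of the 910 genes higher in Th17 than in Th1 cells, the Th9 mean lay between the other kinds in 474, below both in 366 and above both in 70. Of the 897 lower genes it lay between in 457, above both in 325 and below both in 115. Myo6 read 1549 and 2259.4 in Th9 cells, above both other kinds. Sgk1 read 330.1 and 347.5 in Th9 cells, between them and nearer to the Th1 arrays.

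**Figure D2:**
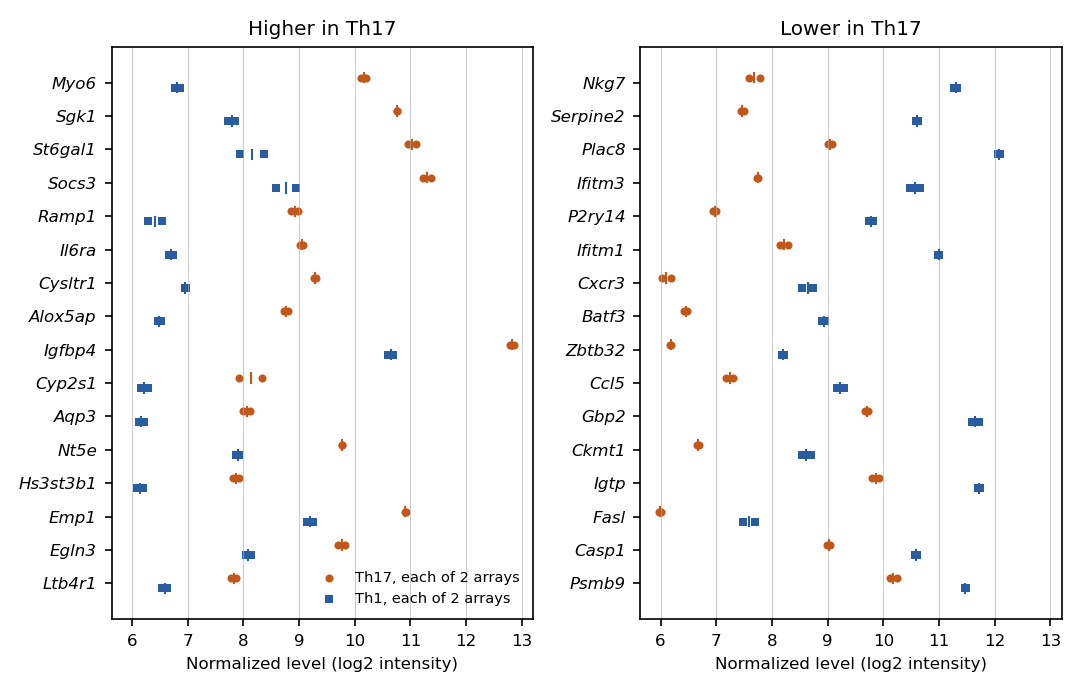
Normalized level (x axis, log2 intensity) of genes higher (left panel) and lower (right panel) in Th17 cells, with 1 circle per Th17 array, 1 square per Th1 array and a tick at each mean. In every gene shown both Th17 circles lie on 1 side of both Th1 squares, which was a condition for choosing them.

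The labels were checked against the markers of each kind. Tbx21 read 2.1 and -5.4 in Th17 cells, against 56.2 and 54.2 in Th1 cells, above noise only in Th1 cells, and was at least 1.96-fold lower in Th17 cells (adjusted p = 3.96e-07). Such a lower bound sets the brighter kind against the dimmest level that counts as detected, and is used wherever a gene was above noise on neither array of the dimmer kind. Cxcr3 fell, with 5.4 and 13.6 in Th17 cells, against 282 and 272.4 in Th1 cells (log2 change -2.54 ± 0.11, adjusted p = 3.34e-12). Ifng itself was dim, at 7.2 and 0.9 in Th17 cells, against 27.5 and 22.1 in Th1 cells (log2 change -0.52 ± 0.11, adjusted p = 0.00198). Il12rb2, the inducible chain of the interleukin 12 receptor, was at least 1.59-fold lower (adjusted p = 3.81e-05), with -2 and 4.2 in Th17 cells, against 45.3 and 28.4 in Th1 cells. Il18r1, a chain of the interleukin 18 receptor, had a log2 change of -0.06 ± 0.13 (adjusted p = 0.818). In the Th1 subset list 1 of 19 members tested rose and 9 fell, with a median log2 change of -0.32, and Stat4 was the member that rose (log2 change 0.42 ± 0.11, adjusted p = 0.0142). The Th1 arrays thus held the higher signal of T-bet and Cxcr3. Tbx21, Ifng, Il12rb2 and Stat4 were not called on uncorrected values floored at 1 (adjusted p 0.0762 to 0.218). Stat4 was not called with any of an offset of 16, other probes and leaving out 1 of Th17 replicate 1, Th17 replicate 2 or Th1 replicate 1 (adjusted p 0.0806 to 0.125).

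Interleukin 17 itself was dim on all 4 arrays. Il17a read -0.3 and 8.6 in Th17 cells, against 3.1 and 11.2 in Th1 cells (log2 change -0.11 ± 0.12, adjusted p = 0.633), and Il17f, above noise only in Th17 cells, read 7.7 and 15.6 in Th17 cells, against -2.2 and -0.9 in Th1 cells, or at least 1.05-fold higher, and did not pass the test (adjusted p = 0.102). Il22, Il23r, Ahr and Ccl20 lay below the noise filter. Other genes linked to this kind did differ: Rora had 143.4 and 137.7 in Th17 cells, against 30.5 and 25.3 in Th1 cells (log2 change 0.95 ± 0.11, adjusted p = 1.76e-06), and the paired membrane proteins Tmem176b and Tmem176a rose by 1.69 ± 0.11 and 1.41 ± 0.11 on the log2 scale. Il17re, the receptor of interleukin 17C, had 127 and 124.5 in Th17 cells, against 4.5 and 9.9 in Th1 cells (log2 change 1.31 ± 0.11, adjusted p = 3.23e-08). Over the Th17 subset list 10 of 20 members tested were called higher and 2 lower, with a median log2 change of 0.36, and the lower members were Ccr6 and Abcb1b. A dimmer probe of Ccr6 moved the opposite way and was not called in limma (log2 change 0.11, adjusted p = 0.636, against -0.48 on the probe used). The direction of Ccr6 thus depended on the probe. Markers of other helper kinds were mixed. Of 14 Th2 and Th9 genes 2 rose (Il4 and Gata3) and 2 fell, Irf4 with a log2 change of -0.97 ± 0.11 and Pparg of -0.40 ± 0.12. Il4, the Th2 cytokine, was above noise only in Th17 cells, with 146.3 and 114.4 in Th17 cells, against -0.5 and 0.1 in Th1 cells, or at least 2.59-fold higher (adjusted p = 2.99e-09). Gata3, the Th2 factor, had 373.1 and 386.6 in Th17 cells, against 130.8 and 93.2 in Th1 cells (log2 change 1.001 ± 0.110, adjusted p = 1.66e-06), and Foxp3, the factor of regulatory T cells, 390.8 and 360.5 in Th17 cells, against 227.3 and 209 in Th1 cells (log2 change 0.26 ± 0.11, adjusted p = 0.139). A dimmer probe of Foxp3 was called higher, with 59.2 and 65.2 in Th17 cells, against 16 and 8.6 in Th1 cells (log2 change 0.62 ± 0.12, adjusted p = 9.13e-04). Of 18 regulatory T cell genes 5 rose, among them Nt5e and Nrp1, and 5 fell, among them Tnfrsf4 and Tnfrsf9 with log2 changes of -0.60 ± 0.11 and -0.62 ± 0.11. Il17re, Ccr6, Abcb1b, Tnfrsf4 and Tnfrsf9 were not called on uncorrected values floored at 1 (adjusted p 0.0557 to 0.111). Ccr6, Pparg and Tnfrsf4 were not called with 1 or more of other scalings, other probes and leaving out 1 of Th17 replicate 1, Th17 replicate 2, Th1 replicate 1 or Th1 replicate 2 (adjusted p 0.0519 to 0.636).

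Cd3e, a chain shared by all T cells, read 3826.1 and 4065.2 in Th17 cells, against 3129.7 and 2760.4 in Th1 cells (log2 change 0.14 ± 0.11, adjusted p = 0.494), and Cd4 read 85.8 and 94.1 in Th17 cells, against 24.1 and 36.6 in Th1 cells (log2 change 0.49 ± 0.12, adjusted p = 0.00882). Of 12 T cell identity genes tested, 7 rose and 0 fell. Their summed intensity was 38622.7 and 36440.9 in Th17 cells, against 27491.4 and 22851.2 in Th1 cells. Such sums are of deposited intensities, for which genes not called had a median Th17 to Th1 ratio of 1.36. Markers of B and plasma cells moved against them: of 14 tested, 7 fell and 1 rose. Igkc, the kappa light chain constant region, had 61.9 and 65.9 in Th17 cells, against 1089.3 and 952.3 in Th1 cells (log2 change -3.43 ± 0.12, adjusted p = 7.51e-14), and the plasma cell chaperone Mzb1 18.6 and 14.5 in Th17 cells, against 108.9 and 73 in Th1 cells (log2 change -1.20 ± 0.11, adjusted p = 1.72e-07). The summed intensity of the list was 4563.7 and 3983.4 in Th17 cells, against 4731.3 and 4179.4 in Th1 cells. The B cell genes Ms4a1, Pax5, Bank1, Cr2 and Sdc1 were below the noise filter, and Ighm, the mu heavy chain, had 1139.7 and 1067.3 in Th17 cells, against 784.9 and 803.8 in Th1 cells (log2 change 0.06 ± 0.12, adjusted p = 0.823). In bulk samples fewer cells of a type and less RNA per cell cannot be told apart. Cd4 was not called on uncorrected values floored at 1 (adjusted p = 0.219). Cd4 was not called with any of an offset of 16 and leaving out 1 of Th17 replicate 2 or Th1 replicate 1 (adjusted p 0.0552 to 0.123).

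Markers of macrophages and dendritic cells summed to 2699.5 and 2374.9 in Th17 cells, against 2284.4 and 1751.8 in Th1 cells, and 3 of 12 tested fell (Mpeg1, Bst2 and Ly86) while 0 rose. These sums too are to be read beside the median ratio of 1.36 over genes not called. Natural killer markers summed to 108.3 and 61.8 in Th17 cells, against 136.2 and 67.9 in Th1 cells. In limma 0 of 6 natural killer, 0 of 7 granulocyte and 0 of 13 erythroid markers were called, with 2, 0 and 1 at an unadjusted p under 0.05. Cd8a was near 0 on all 4 arrays. Cd8b1 read 717.8 and 552.2 in Th17 cells, against 1163.9 and 1043.3 in Th1 cells (log2 change -1.10 ± 0.11, adjusted p = 6.48e-07). A further, dimmer probe of it was also called lower (log2 change -0.43, adjusted p = 0.019). Its brightest other probe moved the opposite way in limma (log2 change 0.36, adjusted p = 0.0269), so no direction is given for this gene. The part of these other cells in the differences below was not tested.

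Receptors higher in Th17 cells included those of cytokines and of lipid mediators. Il6ra, which binds interleukin 6, read 532.3 and 512.5 in Th17 cells, against 36.8 and 33.9 in Th1 cells (log2 change 2.34 ± 0.11, adjusted p = 5.32e-12). Il7r, the receptor of the survival cytokine interleukin 7, had 2250.6 and 2482 in Th17 cells, against 870.4 and 618.6 in Th1 cells (log2 change 1.22 ± 0.12, adjusted p = 2.86e-07). Ramp1, the partner that lets the calcitonin receptor-like receptor sense the neuropeptide CGRP, had 520.2 and 433.3 in Th17 cells, against 28.8 and 13.9 in Th1 cells (log2 change 2.51 ± 0.12, adjusted p = 9.50e-12). It was the 1 call among 6 genes of that receptor system, or 16.7% beside 14.9% of all genes. Cysltr1, the receptor of cysteinyl leukotrienes, had 675.6 and 598.6 in Th17 cells, against 57.2 and 45.2 in Th1 cells (log2 change 2.34 ± 0.11, adjusted p = 6.38e-12). Ltb4r1, the high-affinity receptor of leukotriene B4, had 207.1 and 177.9 in Th17 cells, against 29.5 and 28.2 in Th1 cells (log2 change 1.24 ± 0.11, adjusted p = 6.11e-08). Lpar6, a lysophosphatidic acid receptor, had 1216.3 and 1045.1 in Th17 cells, against 450.8 and 352.1 in Th1 cells (log2 change 0.98 ± 0.11, adjusted p = 1.96e-06). The Th17 and Th1 arrays did not overlap in these genes, but this was a condition for naming members of the lists. It held for 52.8% of all genes tested. Ramp1 was not called on uncorrected values floored at 1 (adjusted p = 0.056).

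P2ry14, the receptor of UDP-glucose, went the other way with 75.2 and 74 in Th17 cells, against 788.2 and 608.2 in Th1 cells (log2 change -2.81 ± 0.11, adjusted p = 3.14e-13). Over all G protein-coupled receptors, 17 of 105 members tested rose and 9 fell, with a median log2 change of 0.05. That was a share called of 24.8% beside 14.9% of all genes. The egress receptor S1pr1 rose by 0.72 ± 0.12, the oxysterol receptor Gpr183 by 0.63 ± 0.11, and Cxcr1 by 1.34 ± 0.12, while Cxcr6 fell (log2 change -0.71 ± 0.14). Of 30 genes of homing and egress 6 rose and 6 fell, a share called of 40%. Klf2, the transcription factor that drives S1pr1, had 1663 and 1575.3 in Th17 cells, against 617.6 and 405.7 in Th1 cells (log2 change 1.18 ± 0.12, adjusted p = 9.16e-07). S1pr1, Gpr183, Cxcr1, Cxcr6 and Klf2 were not called on uncorrected values floored at 1 (adjusted p 0.0649 to 0.439). Cxcr6 was not called on leaving out Th17 replicate 1 (adjusted p = 0.0573).

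Cell surface proteins of the immunoglobulin and other families also differed. Nrp1, a co-receptor of semaphorins and vascular endothelial growth factor, had 300.7 and 313.2 in Th17 cells, against 42.4 and 45 in Th1 cells (log2 change 1.52 ± 0.11, adjusted p = 5.16e-09). Vsir, the inhibitory ligand VISTA, had 478 and 568.8 in Th17 cells, against 108.2 and 100.1 in Th1 cells (log2 change 1.47 ± 0.12, adjusted p = 3.81e-08). Nt5e, or CD73, the ectoenzyme that turns AMP into adenosine, had 958.1 and 890.4 in Th17 cells, against 154.9 and 131 in Th1 cells (log2 change 1.88 ± 0.11, adjusted p = 1.42e-10). Cd274, or PD-L1, was lower, with 95.3 and 88.2 in Th17 cells, against 194.4 and 185.9 in Th1 cells (log2 change -1.07 ± 0.11, adjusted p = 6.65e-07), and Cd80, a ligand of CD28, had 43.8 and 48.6 in Th17 cells, against 145.7 and 113.6 in Th1 cells (log2 change -1.13 ± 0.11, adjusted p = 2.82e-07). The adhesion receptor Cd2 rose by 0.95 ± 0.11. Itga7, a laminin-binding integrin, was at least 2.28-fold higher (adjusted p = 3.12e-08), with 100.6 and 110.7 in Th17 cells, against 3.1 and -0.5 in Th1 cells. Of 17 integrins 3 rose (Itga7, Itgae and Itgb5) and 0 fell, a share called of 17.6% that lay near the 14.9% of all genes. Itgb5 was not called on uncorrected values floored at 1 (adjusted p = 0.133). Cd80 was not called with other probes (adjusted p = 0.911).

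TNF ligands were called lower more often than higher. Fasl, which kills cells that carry Fas, was above noise only in Th1 cells, with 4.6 and 3.1 in Th17 cells, against 130.8 and 84.4 in Th1 cells, or at least 2.9-fold lower in Th17 cells (adjusted p = 3.46e-09). Lta, lymphotoxin alpha, had 445 and 370.4 in Th17 cells, against 870.5 and 640.5 in Th1 cells (log2 change -1.16 ± 0.11, adjusted p = 1.98e-07). Tnfsf13b, or BAFF, and Tnfsf4, or OX40 ligand, fell with log2 changes of -0.81 ± 0.11 and -0.79 ± 0.11, and Tnfsf14 rose by 0.64 ± 0.11, which made 4 lower and 1 higher of 12 tested. Of their receptors, Tnfrsf25, or DR3, had 712.2 and 635.4 in Th17 cells, against 271.8 and 236.7 in Th1 cells (log2 change 0.83 ± 0.11, adjusted p = 1.13e-05). Among other secreted factors Ccl5, a chemokine of inflammation, had 100.6 and 107.2 in Th17 cells, against 521.6 and 392.8 in Th1 cells (log2 change -1.99 ± 0.12, adjusted p = 6.56e-10), and Ebi3, a subunit of interleukin 27 and interleukin 35, 29.1 and 19.9 in Th17 cells, against 139.4 and 130.4 in Th1 cells (log2 change -1.49 ± 0.11, adjusted p = 6.98e-09). Tgfb3, a transforming growth factor beta, was at least 1.97-fold higher (adjusted p = 5.67e-07), with 108.6 and 60.2 in Th17 cells, against -4.5 and -3 in Th1 cells. Tnfsf14 was not called on uncorrected values floored at 1 (adjusted p = 0.073). Tnfsf14 and Tnfrsf25 were not called with other probes (adjusted p 0.0647 to 0.441).

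Pumps and aquaporins that passed the test were all higher in Th17 cells. Aqp3, the channel for water and glycerol, had 260.9 and 215.3 in Th17 cells, against 12.2 and 8.2 in Th1 cells (log2 change 1.89 ± 0.11, adjusted p = 1.99e-10). Atp1b3, a beta subunit of the sodium-potassium pump, read 7574.8 and 6954 in Th17 cells, against 3618.2 and 2959.2 in Th1 cells (log2 change 0.84 ± 0.11, adjusted p = 1.25e-05), and its relative Atp1b1 rose by 0.72 ± 0.11. Atp10a, a phospholipid flippase, had 755.8 and 787.5 in Th17 cells, against 272.6 and 211.6 in Th1 cells (log2 change 1.07 ± 0.11, adjusted p = 6.43e-07). Of 45 pumps and aquaporins 9 rose and 0 fell, with a median log2 change of 0.14 against 0.0045 over all genes. Over 130 ion channels 9 rose and 4 fell (Clic4, Kcnq5, Kcnk5 and Lrrc8c), a share called of 10% beside 14.9% of all genes. The chloride-proton exchanger Clcn3 rose by 0.67 ± 0.11 and the voltage-gated proton channel Hvcn1 by 0.60 ± 0.11. Atp1b3, Atp1b1, Clic4, Kcnq5, Kcnk5, Lrrc8c, Clcn3 and Hvcn1 were not called on uncorrected values floored at 1 (adjusted p 0.0548 to 0.354). Clic4, Kcnq5, Kcnk5 and Lrrc8c were not called with 1 or more of other scalings, an offset of 16, other probes, another filter or variance model and leaving out 1 of Th17 replicate 1, Th17 replicate 2, Th1 replicate 1 or Th1 replicate 2 (adjusted p 0.0657 to 0.959).

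Of 228 solute carriers 16 rose and 8 fell, a share called of 10.5% beside 14.9% of all genes. Slc2a3, the high-affinity glucose transporter GLUT3, had 1468.2 and 1277.1 in Th17 cells, against 460.2 and 364.1 in Th1 cells (log2 change 1.21 ± 0.11, adjusted p = 6.23e-08). Slc17a9, which loads nucleotides into vesicles, had 331.9 and 262.4 in Th17 cells, against 86.5 and 72.3 in Th1 cells (log2 change 1.01 ± 0.11, adjusted p = 1.76e-06). Slc6a6, the taurine transporter, rose by 0.67 ± 0.11. Slc19a2, a thiamine transporter, fell, with 178.9 and 183.4 in Th17 cells, against 345.5 and 262.4 in Th1 cells (log2 change -0.97 ± 0.11, adjusted p = 1.91e-06). Slc2a1, the glucose transporter GLUT1, had 1667.5 and 1608.5 in Th17 cells, against 1093.5 and 881.7 in Th1 cells (log2 change 0.31 ± 0.11, adjusted p = 0.0589). Among 31 ABC transporters, 3 rose (Abca7, Abca3 and Abca2) and 6 fell, a direction that was not kept with other scalings (6 higher and 2 lower with each array scaled to its median, and 6 higher and 2 lower without scaling). Abcb1b, the mouse multidrug exporter also known as MDR1b, had 87.1 and 66.9 in Th17 cells, against 182.6 and 120.6 in Th1 cells (log2 change -0.95 ± 0.12, adjusted p = 1.15e-05), and Abcb9, a lysosomal peptide transporter, 66.1 and 100.9 in Th17 cells, against 190 and 189.8 in Th1 cells (log2 change -1.15 ± 0.13, adjusted p = 2.03e-06). Slc6a6, Abca7, Abca3, Abca2, Abcb1b and Abcb9 were not called on uncorrected values floored at 1 (adjusted p 0.056 to 0.306). Abca7, Abca3 and Abca2 were not called with 1 or more of an offset of 16, other probes, another filter or variance model and leaving out 1 of Th17 replicate 1, Th17 replicate 2, Th1 replicate 1 or Th1 replicate 2 (adjusted p 0.0534 to 0.586).

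Glycolytic and hypoxia-linked genes that passed the test were all higher in Th17 cells. Hypoxia-inducible factor 1 is a transcription factor that oxygen-dependent prolyl hydroxylases keep low, and its target genes include those hydroxylases. Egln3, such a hydroxylase, had 902.5 and 918.9 in Th17 cells, against 183.5 and 159.3 in Th1 cells (log2 change 1.68 ± 0.11, adjusted p = 9.45e-10). Ndrg1, a stress-induced gene of this set, had 431.6 and 450.7 in Th17 cells, against 97.4 and 79.7 in Th1 cells (log2 change 1.41 ± 0.11, adjusted p = 1.47e-08). P4ha2, a collagen prolyl hydroxylase, had 441.2 and 436.5 in Th17 cells, against 136.8 and 109.4 in Th1 cells (log2 change 1.08 ± 0.11, adjusted p = 4.10e-07). Vegfa, vascular endothelial growth factor, rose by 0.75 ± 0.12. Of 30 targets 11 rose and 0 fell, with a median log2 change of 0.23. Hif1a itself had 143.9 and 164.1 in Th17 cells, against 152.4 and 106.9 in Th1 cells (log2 change -0.18 ± 0.12, adjusted p = 0.371). Vegfa was not called on uncorrected values floored at 1 (adjusted p = 0.0889).

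In glycolysis 6 of 23 genes rose, 0 fell, and the median log2 change was 0.17. Aldoc, an aldolase, read 530 and 535.4 in Th17 cells, against 134.5 and 127 in Th1 cells (log2 change 1.27 ± 0.11, adjusted p = 5.74e-08). Pdk1, a kinase that inhibits pyruvate dehydrogenase, had 492.8 and 401.7 in Th17 cells, against 164.8 and 124.8 in Th1 cells (log2 change 0.94 ± 0.11, adjusted p = 3.54e-06). Hk1, a hexokinase, rose by 0.53 ± 0.12. Ldha, lactate dehydrogenase A, read 7576.7 and 7494.6 in Th17 cells, against 6297 and 4965.5 in Th1 cells (log2 change 0.14 ± 0.11, adjusted p = 0.472). In fatty acid oxidation 4 of 33 genes fell (Etfb, Acadl, Slc25a20 and Echs1) and 0 rose, a share called of 12.1% beside 14.9% of all genes. That direction turned with other scalings (2 higher and 1 lower with each array scaled to its median, and 5 higher and 1 lower without scaling). Etfb, which passes electrons from acyl-CoA dehydrogenases to the respiratory chain, had 633.5 and 676.7 in Th17 cells, against 1170.6 and 963.9 in Th1 cells (log2 change -1.02 ± 0.11, adjusted p = 1.60e-06). Hk1, Acadl, Slc25a20 and Echs1 were not called on uncorrected values floored at 1 (adjusted p 0.133 to 0.204). Acadl, Slc25a20 and Echs1 were not called with 1 or more of other scalings, an offset of 16, other probes and leaving out 1 of Th17 replicate 1, Th17 replicate 2, Th1 replicate 1 or Th1 replicate 2 (adjusted p 0.0589 to 0.959).

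**Figure D3:**
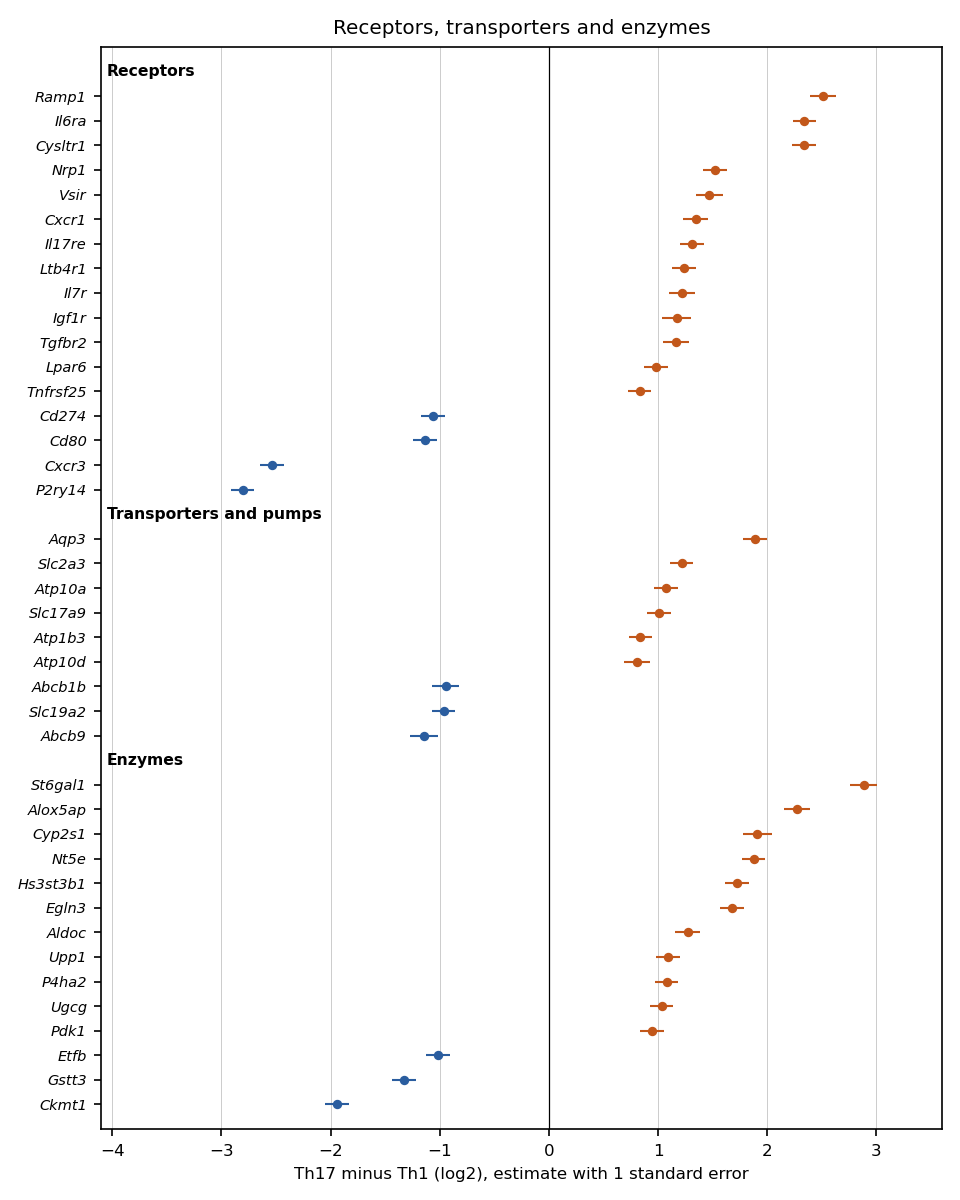
Log2 change, Th17 minus Th1, of receptors, transporters and enzymes, with bars for the standard error of the fit (2 arrays per kind). All but Atp10d are named in the text. Points right of 0 are higher in Th17 cells, as for Il6ra, Cysltr1 and Aqp3, and points left of 0 lower, as for P2ry14 and Cxcr3.

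Genes of leukotrienes and related lipids went both ways. Leukotrienes are made from arachidonic acid by 5-lipoxygenase, which needs the helper protein Alox5ap. Alox5ap read 453.7 and 392.6 in Th17 cells, against 27.7 and 20.9 in Th1 cells (log2 change 2.27 ± 0.12, adjusted p = 3.02e-11), beside the receptors Cysltr1 and Ltb4r1 above, while 5-lipoxygenase itself (Alox5) and the synthases Lta4h and Ltc4s lay below the noise filter. Over 23 genes of leukotrienes, prostaglandins and lipoxins 8 rose and 4 fell, among them Ephx1 (log2 change -0.75 ± 0.11, adjusted p = 8.32e-05), Fpr2 (log2 change -0.59 ± 0.11, adjusted p = 7.62e-04), Pla2g4b and Ptges3. Ugcg, the enzyme that makes glucosylceramide, had 1716.2 and 1683.7 in Th17 cells, against 669.4 and 523.8 in Th1 cells (log2 change 1.03 ± 0.11, adjusted p = 7.63e-07). Acss1 and Acss2, which activate acetate in mitochondria and cytosol, rose by 0.77 ± 0.11 and 0.75 ± 0.13, and Elovl6, a fatty acid elongase, by 0.76 ± 0.11. Genes of fatty acid synthesis and uptake held 8 higher and 1 lower (Fads6) of 35. Ephx1, Fpr2, Pla2g4b, Ptges3, Acss1, Acss2, Elovl6 and Fads6 were not called on uncorrected values floored at 1 (adjusted p 0.0556 to 0.206). Pla2g4b, Ptges3, Elovl6 and Fads6 were not called with 1 or more of other scalings, an offset of 16, other probes, another filter or variance model and leaving out 1 of Th17 replicate 1, Th17 replicate 2, Th1 replicate 1 or Th1 replicate 2 (adjusted p 0.0528 to 0.946).

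Nucleotide, glycan and redox enzymes moved both ways. Upp1, uridine phosphorylase, had 119.6 and 106.5 in Th17 cells, against 8.9 and 14.6 in Th1 cells (log2 change 1.09 ± 0.11, adjusted p = 4.68e-07). Hs3st3b1, a heparan sulfate sulfotransferase, had 196.5 and 202.4 in Th17 cells, against 11.5 and 6.8 in Th1 cells (log2 change 1.73 ± 0.11, adjusted p = 6.56e-10), and Neu1, a lysosomal sialidase, rose by 0.94 ± 0.13. In glycosyltransferases 16 of 106 rose and 7 fell, a share called of 21.7% beside 14.9% of all genes. Selenop, a secreted selenium carrier, had 470.7 and 499.6 in Th17 cells, against 122.8 and 87.8 in Th1 cells (log2 change 1.37 ± 0.11, adjusted p = 2.14e-08). Gstt3, a glutathione transferase, had 72.8 and 82.5 in Th17 cells, against 228.4 and 199.3 in Th1 cells (log2 change -1.33 ± 0.11, adjusted p = 2.61e-08). Il4i1, an amino acid oxidase, had 28.3 and 9 in Th17 cells, against 115.3 and 118.1 in Th1 cells (log2 change -1.44 ± 0.12, adjusted p = 4.47e-08). Cyp2s1, a cytochrome P450, rose, with 218.8 and 287.1 in Th17 cells, against 15.2 and 9.2 in Th1 cells (log2 change 1.91 ± 0.13, adjusted p = 1.65e-09). Steroid and retinoid genes gave 0 calls among 30 tested in limma, with 6 at an unadjusted p under 0.05, and 5 higher and 0 lower with each array scaled to its median. Neu1 and Il4i1 were not called on uncorrected values floored at 1 (adjusted p 0.0675 to 0.0937).

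Proteases and their inhibitors fell and rose in similar numbers, 13 against 14 of 121, a share called of 22.3% beside 14.9% of all genes. Casp1, the inflammasome caspase, had 520.1 and 505.2 in Th17 cells, against 1411.8 and 1150.5 in Th1 cells (log2 change -1.56 ± 0.11, adjusted p = 2.03e-09). Serpinb1a, an inhibitor of neutrophil proteases, was at least 2.39-fold higher (adjusted p = 2.14e-08), with 116.1 and 113.1 in Th17 cells, against 1.8 and 4.8 in Th1 cells. Timp2, an inhibitor of metalloproteases, was at least 2.09-fold higher (adjusted p = 1.10e-07), with 92.6 and 91.2 in Th17 cells, against 2.7 and 2.2 in Th1 cells. Those inhibitors were above noise on the Th17 arrays alone. Serpinb1a was not called on uncorrected values floored at 1 (adjusted p = 0.105).

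In the interleukin 6 pathway 8 of 32 genes rose and 0 fell, a share called of 25% beside 14.9% of all genes. Interleukin 6 binds Il6ra and the shared chain Il6st, which activate Jak1 and Stat3, and Stat3 induces Socs3, which in turn blocks the receptor. Socs3 read 3074.7 and 2517 in Th17 cells, against 290.6 and 323.4 in Th1 cells (log2 change 2.54 ± 0.13, adjusted p = 2.49e-11). Stat3 read 815.5 and 963.6 in Th17 cells, against 517.1 and 431.5 in Th1 cells (log2 change 0.45 ± 0.12, adjusted p = 0.0145), Jak1 rose by 0.61 ± 0.11, and Il6st had 34.9 and 25.1 in Th17 cells, against 26.1 and 7.2 in Th1 cells (log2 change 0.14 ± 0.12, adjusted p = 0.549). Bcl3 and Pim3, further genes of the list, rose by 0.99 ± 0.12 and 0.63 ± 0.11. Jak1, Stat3, Bcl3 and Pim3 were not called on uncorrected values floored at 1 (adjusted p 0.0727 to 0.251). Jak1 and Stat3 were not called with 1 or more of an offset of 16, other probes and leaving out 1 of Th17 replicate 2 or Th1 replicate 2 (adjusted p 0.0521 to 0.296).

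The 250 bases before the start of Socs3 (RefSeq, GRCm38.p6, chr11:117969367-117969616, minus strand) are shown because Socs3 had the largest change of the pathway. Capitals mark the STAT-type motif TTCNNNGAA, whose first base lies 154 bases before the start.
Socs3: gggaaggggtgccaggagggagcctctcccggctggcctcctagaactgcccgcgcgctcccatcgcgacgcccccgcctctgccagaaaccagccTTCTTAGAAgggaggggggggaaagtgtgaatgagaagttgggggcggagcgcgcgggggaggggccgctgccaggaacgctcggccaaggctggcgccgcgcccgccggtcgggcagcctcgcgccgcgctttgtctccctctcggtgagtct
The motif, which equals its own reverse complement, was in 6.21% of the 9579 promoters of tested genes, in 4.86% of those called higher and in 10.7% of those called lower. Of the pathway's 24 matched promoters it was in 1, that of Socs3. A match is a description of letters and shows no binding.

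Kinases and brakes of the PI3K pathway differed as well. Sgk1, a kinase related to Akt that salt and glucocorticoids induce, read 1998.4 and 1846.6 in Th17 cells, against 152.1 and 108.4 in Th1 cells (log2 change 2.97 ± 0.11, adjusted p = 1.84e-13). Trib3, a pseudokinase that binds Akt, had 419.4 and 352 in Th17 cells, against 119.4 and 79.3 in Th1 cells (log2 change 1.14 ± 0.12, adjusted p = 5.46e-07). Pik3ip1, an inhibitor of PI3K, and Foxo1, a factor that Akt holds out of the nucleus, rose by 0.81 ± 0.11 and 0.49 ± 0.11. In the pathway 11 of 42 rose and 2 (Inppl1 and Ddit4l) fell. Igf1r, the receptor of insulin-like growth factor 1, had 277.7 and 216.6 in Th17 cells, against 57.5 and 42.5 in Th1 cells (log2 change 1.17 ± 0.13, adjusted p = 1.75e-06). Pik3ip1, Foxo1, Inppl1, Ddit4l and Igf1r were not called on uncorrected values floored at 1 (adjusted p 0.0701 to 0.152). Inppl1 and Ddit4l were not called with 1 or more of other scalings and leaving out 1 of Th17 replicate 1, Th17 replicate 2, Th1 replicate 1 or Th1 replicate 2 (adjusted p 0.0554 to 0.608).

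Glucocorticoid-responsive genes held 10 higher and 1 lower of 23, with a median log2 change of 0.21. Tsc22d3, or GILZ, a classic target of the hormone, had 1369 and 1285.1 in Th17 cells, against 669.8 and 476.3 in Th1 cells (log2 change 0.77 ± 0.11, adjusted p = 4.30e-05), and Klf9 rose by 0.73 ± 0.11. The member that fell was Cdkn1a, the cell cycle inhibitor p21, with 573 and 506.2 in Th17 cells, against 1175.1 and 1155 in Th1 cells (log2 change -1.38 ± 0.11, adjusted p = 2.29e-08). Clock genes held 8 higher and 1 lower (Timeless) of 17. Arntl, or BMAL1, which pairs with Clock to start the daily cycle, had 80.2 and 90.2 in Th17 cells, against 21.8 and 19.7 in Th1 cells (log2 change 0.65 ± 0.12, adjusted p = 5.49e-04). Nr1d2, a repressor of Arntl, rose by 0.63 ± 0.12 and Dbp, an output factor, by 0.46 ± 0.11. The labels do not state the hour of sorting. Tsc22d3, Klf9, Clock, Timeless, Arntl, Nr1d2 and Dbp were not called on uncorrected values floored at 1 (adjusted p 0.0717 to 0.184). Klf9, Clock, Timeless and Dbp were not called with 1 or more of other scalings, an offset of 16, other probes and leaving out 1 of Th17 replicate 1, Th17 replicate 2 or Th1 replicate 2 (adjusted p 0.0501 to 0.978).

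Other signalling sets held more genes called higher than lower. Tgfbr2, the ligand-binding receptor of transforming growth factor beta, had 1801.7 and 1795.6 in Th17 cells, against 673.2 and 471.7 in Th1 cells (log2 change 1.16 ± 0.12, adjusted p = 4.68e-07), and Tgfbr1 rose by 0.58 ± 0.11. In that pathway 7 of 31 rose and 2 fell (Nrros and Id3), a share called of 29% beside 14.9% of all genes. In Wnt signalling 10 of 33 rose and 1 fell (Csnk1a1). Axin2, a feedback target of beta-catenin, had 144.6 and 125.6 in Th17 cells, against 32.6 and 33.7 in Th1 cells (log2 change 0.81 ± 0.11, adjusted p = 2.37e-05). In cyclic AMP signalling 7 of 45 rose and 0 fell, a share called of 15.6% that lay near the 14.9% of all genes. Arhgef11, a guanine nucleotide exchange factor, had 494.1 and 333.4 in Th17 cells, against 55.9 and 50.8 in Th1 cells (log2 change 1.72 ± 0.13, adjusted p = 7.86e-09), and Ripor2 827.9 and 740.4 in Th17 cells, against 177.5 and 162.4 in Th1 cells (log2 change 1.47 ± 0.11, adjusted p = 1.09e-08). Tgfbr2, Tgfbr1, Nrros, Id3 and Csnk1a1 were not called on uncorrected values floored at 1 (adjusted p 0.0513 to 0.265). Nrros, Id3 and Csnk1a1 were not called with 1 or more of other scalings, an offset of 16, other probes, another filter or variance model and leaving out 1 of Th17 replicate 1, Th17 replicate 2, Th1 replicate 1 or Th1 replicate 2 (adjusted p 0.052 to 0.826).

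Near the T cell receptor 12 of 44 genes rose and 5 fell (Vav2, Cblb, Trat1, Themis and Vav3). Dgka, which clears diacylglycerol, had 2997.6 and 2774.8 in Th17 cells, against 1250.6 and 1146 in Th1 cells (log2 change 0.85 ± 0.12, adjusted p = 2.41e-05), and Rasa3, a Ras inhibitor, 2499.1 and 2295.5 in Th17 cells, against 891 and 691.5 in Th1 cells (log2 change 1.15 ± 0.12, adjusted p = 5.99e-07). Vav2, a guanine nucleotide exchange factor that acts after antigen receptor engagement, had 110.6 and 106.6 in Th17 cells, against 211.9 and 195.1 in Th1 cells (log2 change -1.001 ± 0.110, adjusted p = 1.70e-06). Dusp4, a phosphatase of MAP kinases, had 40.9 and 44.1 in Th17 cells, against 188.7 and 124.6 in Th1 cells (log2 change -1.36 ± 0.11, adjusted p = 2.99e-08). Of immediate early and heat shock genes 13 of 38 rose and 4 fell (Rgs1, Hsp90aa1, Hspd1 and Hspe1). Egr3 had 254.1 and 212 in Th17 cells, against 72.5 and 62 in Th1 cells (log2 change 0.87 ± 0.11, adjusted p = 8.53e-06), and Fos, Egr1 and Zfp36 rose by 0.98 ± 0.11, 0.79 ± 0.11 and 1.04 ± 0.11. Cblb, Trat1, Themis, Vav3, Dgka, Rasa3, Rgs1, Hsp90aa1, Hspd1, Hspe1, Fos, Egr1 and Zfp36 were not called on uncorrected values floored at 1 (adjusted p 0.0503 to 0.195). Themis, Vav3, Rgs1, Hsp90aa1, Hspd1 and Hspe1 were not called with 1 or more of other scalings, an offset of 16, other probes and leaving out Th17 replicate 1 (adjusted p 0.0561 to 0.837).

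Transcription factors separated the kinds further. Batf3, which pairs with Jun proteins, had 29.7 and 31.5 in Th17 cells, against 397.3 and 311.8 in Th1 cells (log2 change -2.48 ± 0.11, adjusted p = 1.82e-12). Zbtb32, a zinc finger repressor, had 15.1 and 12.7 in Th17 cells, against 212.2 and 166.1 in Th1 cells (log2 change -2.01 ± 0.12, adjusted p = 1.65e-10). Onecut2, a homeodomain factor, had 9.6 and 5.8 in Th17 cells, against 308.5 and 189.7 in Th1 cells (log2 change -2.42 ± 0.12, adjusted p = 1.92e-11). Hopx, an atypical homeodomain protein, had 107 and 77.2 in Th17 cells, against 244.2 and 195.1 in Th1 cells (log2 change -1.22 ± 0.11, adjusted p = 1.10e-07). All 4 were brighter on both Th1 arrays than on either Th17 array, which was a condition for naming them. Irf8 and Irf4, interferon regulatory factors, fell with log2 changes of -1.04 ± 0.11 and -0.97 ± 0.11. Bcl6, the repressor of follicular helper and memory cells, had 399 and 364.5 in Th17 cells, against 74 and 70.9 in Th1 cells (log2 change 1.39 ± 0.11, adjusted p = 1.19e-08). Klf13 rose by 1.11 ± 0.12 and Bach2, a factor that restrains effector genes, by 0.58 ± 0.11. Onecut2, Klf13 and Bach2 were not called on uncorrected values floored at 1 (adjusted p 0.0548 to 0.128).

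Genes of memory and quiescence had the largest share called among the 98 lists, 18 higher and 1 lower (Id3) of 25, with a median log2 change of 0.50 beside 0.0045 over all genes. Its leading members were Il6ra, Igfbp4, Bcl6, Il7r and Klf2, given above. All 98 lists were drawn up with earlier results of these data known, so the direction of this or any other list is no independent evidence. Histone genes held 18 higher and 1 lower (H2bc4) of 60. H2ac19 read 225.2 and 205.1 in Th17 cells, against 82.6 and 57.2 in Th1 cells (log2 change 0.75 ± 0.11, adjusted p = 4.58e-05), and H3c4 rose by 0.83 ± 0.12. Histone copies are near-identical, so a probe may read several of them. Kdm7a, a histone demethylase, had 496.5 and 457.2 in Th17 cells, against 132.6 and 95.6 in Th1 cells (log2 change 1.27 ± 0.11, adjusted p = 3.64e-08), and Kdm6b rose by 1.01 ± 0.13. Id3, Klf2, H2bc4, H3c4 and Kdm6b were not called on uncorrected values floored at 1 (adjusted p 0.0564 to 0.265). Id3 and H2bc4 were not called with 1 or more of other scalings, an offset of 16, other probes, another filter or variance model and leaving out 1 of Th17 replicate 1, Th17 replicate 2 or Th1 replicate 2 (adjusted p 0.0535 to 0.987).

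Interferon-induced genes were lower in Th17 cells. Interferons act through STAT proteins and interferon regulatory factors on a shared set of target genes, among them GTPases that attack vacuoles of intracellular microbes. Gbp2, a guanylate-binding protein, read 922.8 and 827.5 in Th17 cells, against 2941.8 and 2743.1 in Th1 cells (log2 change -1.95 ± 0.11, adjusted p = 1.02e-10). Igtp, a GTPase of the IRG family, read 1071.3 and 900.5 in Th17 cells, against 3187.6 and 2774.2 in Th1 cells (log2 change -1.85 ± 0.11, adjusted p = 2.21e-10). Of 17 such GTPases 10 fell and 0 rose, with a median log2 change of -0.46. Gbp3 had 203.9 and 236.2 in Th17 cells, against 576.2 and 524.7 in Th1 cells (log2 change -1.49 ± 0.12, adjusted p = 1.76e-08), and Gbp7 and Irgm2 fell with log2 changes of -1.15 ± 0.12 and -1.04 ± 0.14. Both Th1 arrays lay above both Th17 arrays in these members, which was a condition for naming them. The same held for 25.6% of all genes tested. Members of the family are near-identical in part, so a probe may read more than its named gene. Gbp7 and Irgm2 were not called on uncorrected values floored at 1 (adjusted p 0.0558 to 0.0977).

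Over the wider interferon response 24 of 58 fell and 3 rose (Slfn1, Slfn2 and Sp100), with a median log2 change of -0.27. Ifitm3, a membrane protein that blocks virus entry, had 185.5 and 169.9 in Th17 cells, against 1478.9 and 1070.2 in Th1 cells (log2 change -2.83 ± 0.11, adjusted p = 6.05e-13). Ifitm1 had 295.4 and 243.6 in Th17 cells, against 1901.3 and 1542.3 in Th1 cells (log2 change -2.79 ± 0.11, adjusted p = 3.58e-13). Usp18, which removes the ubiquitin-like ISG15 and damps interferon receptors, had 37.9 and 33.5 in Th17 cells, against 209.4 and 150.5 in Th1 cells (log2 change -1.62 ± 0.11, adjusted p = 1.51e-09). Irf1, an early interferon target, had 2015.1 and 1825.6 in Th17 cells, against 2910.2 and 2531.8 in Th1 cells (log2 change -0.84 ± 0.11, adjusted p = 9.75e-06). Both counts shrank with other scalings: the GTPases gave 1 higher and 7 lower with each array scaled to its median, and 1 higher and 7 lower without scaling. The response list gave 6 higher and 13 lower with each array scaled to its median, and 7 higher and 12 lower without scaling. Slfn1, Slfn2, Sp100 and Irf1 were not called on uncorrected values floored at 1 (adjusted p 0.054 to 0.307). Slfn2 and Sp100 were not called with 1 or more of an offset of 16, other probes and leaving out 1 of Th17 replicate 1, Th17 replicate 2 or Th1 replicate 2 (adjusted p 0.0872 to 0.643). The brightest other probe of Sp100 moved the opposite way (log2 change -0.11).

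Promoters of 4 of the GTPases that fell, 250 bases before the start (RefSeq, GRCm38.p6), are shown as examples. Capitals mark GAAANNGAA, a shortened interferon-stimulated response element searched on both strands, and TTCNNNGAA, the STAT-type motif. No rule picked the 4 from the 10 GTPases that fell, and all 4 hold GAAANNGAA. The windows are chr3:142620413-142620662, plus strand, for Gbp2, chr11:58199306-58199555, plus strand, for Igtp, chr11:58214727-58214976, plus strand, for Irgm2, and chr3:142530086-142530335, plus strand, for Gbp7.
Gbp2: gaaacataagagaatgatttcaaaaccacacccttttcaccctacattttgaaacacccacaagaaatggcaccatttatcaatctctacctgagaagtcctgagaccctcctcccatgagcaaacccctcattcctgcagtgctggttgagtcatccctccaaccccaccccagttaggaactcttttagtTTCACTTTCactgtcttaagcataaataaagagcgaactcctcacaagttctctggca
Igtp: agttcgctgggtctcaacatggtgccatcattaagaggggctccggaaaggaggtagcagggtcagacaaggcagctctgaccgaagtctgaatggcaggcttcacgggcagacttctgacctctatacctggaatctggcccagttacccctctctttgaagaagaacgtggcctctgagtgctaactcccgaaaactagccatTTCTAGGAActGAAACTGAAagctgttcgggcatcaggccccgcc
Irgm2: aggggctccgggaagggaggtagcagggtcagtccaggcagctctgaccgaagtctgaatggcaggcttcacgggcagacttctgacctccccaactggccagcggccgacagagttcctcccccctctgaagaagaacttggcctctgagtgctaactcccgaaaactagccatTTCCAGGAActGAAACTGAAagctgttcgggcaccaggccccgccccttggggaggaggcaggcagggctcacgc
Gbp7: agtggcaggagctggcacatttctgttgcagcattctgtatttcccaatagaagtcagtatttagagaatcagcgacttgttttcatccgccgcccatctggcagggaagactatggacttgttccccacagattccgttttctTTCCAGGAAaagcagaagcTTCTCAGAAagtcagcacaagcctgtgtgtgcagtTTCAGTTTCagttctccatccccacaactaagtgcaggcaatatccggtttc
In Igtp the TTCNNNGAA match begins 45 and the GAAANNGAA match 34 bases before the start, and in Irgm2 75 and 64 bases before it. Gbp7 holds TTCNNNGAA at 106 and 87 bases and GAAANNGAA on the other strand at 52 bases, and Gbp2 holds GAAANNGAA on the other strand at 58 bases. The matches share no base in these windows. GAAANNGAA was in 6.25% of tested genes' promoters, 6.34% of those called higher and 8.3% of those called lower. Within the interferon lists it was in 11 of 28 promoters of genes called lower (39.3%) and in 22 of all 59 tested (37.3%), so the called members held it about as often as their lists. TTCNNNGAA was in 9 of the 28 (32.1%) and in 14 of the 59 (23.7%).

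Antigen presentation fell with the interferon genes. Of 33 class I and peptide-loading genes 19 fell and 0 rose, with a median log2 change of -0.50. Psmb9, a subunit of the immunoproteasome that cuts peptides for class I, had 1346 and 1137.6 in Th17 cells, against 2659.8 and 2224.1 in Th1 cells (log2 change -1.29 ± 0.11, adjusted p = 3.73e-08). Nlrc5, the activator of class I genes, had 343.3 and 385.3 in Th17 cells, against 790.7 and 661.1 in Th1 cells (log2 change -1.25 ± 0.12, adjusted p = 2.87e-07). H2-Q8, a class Ib gene whose probe may also read close relatives, had 229.7 and 179.4 in Th17 cells, against 697.2 and 513.9 in Th1 cells (log2 change -1.70 ± 0.11, adjusted p = 1.22e-09). With other scalings the list gave 3 higher and 9 lower with each array scaled to its median, and 3 higher and 6 lower without scaling. Of 14 class II genes 7 fell and 1 (H2-Ob) rose. Cd74, the invariant chain, had 142.5 and 90.8 in Th17 cells, against 454 and 375.7 in Th1 cells (log2 change -1.79 ± 0.12, adjusted p = 1.38e-09), and H2-Eb1 33.6 and 33.2 in Th17 cells, against 203.8 and 203.9 in Th1 cells (log2 change -1.79 ± 0.11, adjusted p = 7.77e-10). Class II genes are made chiefly by B cells, macrophages and dendritic cells, whose marker sums are given above, and their part in these values was not tested. Nlrc5 was not called on uncorrected values floored at 1 (adjusted p = 0.0544).

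**Figure D4:**
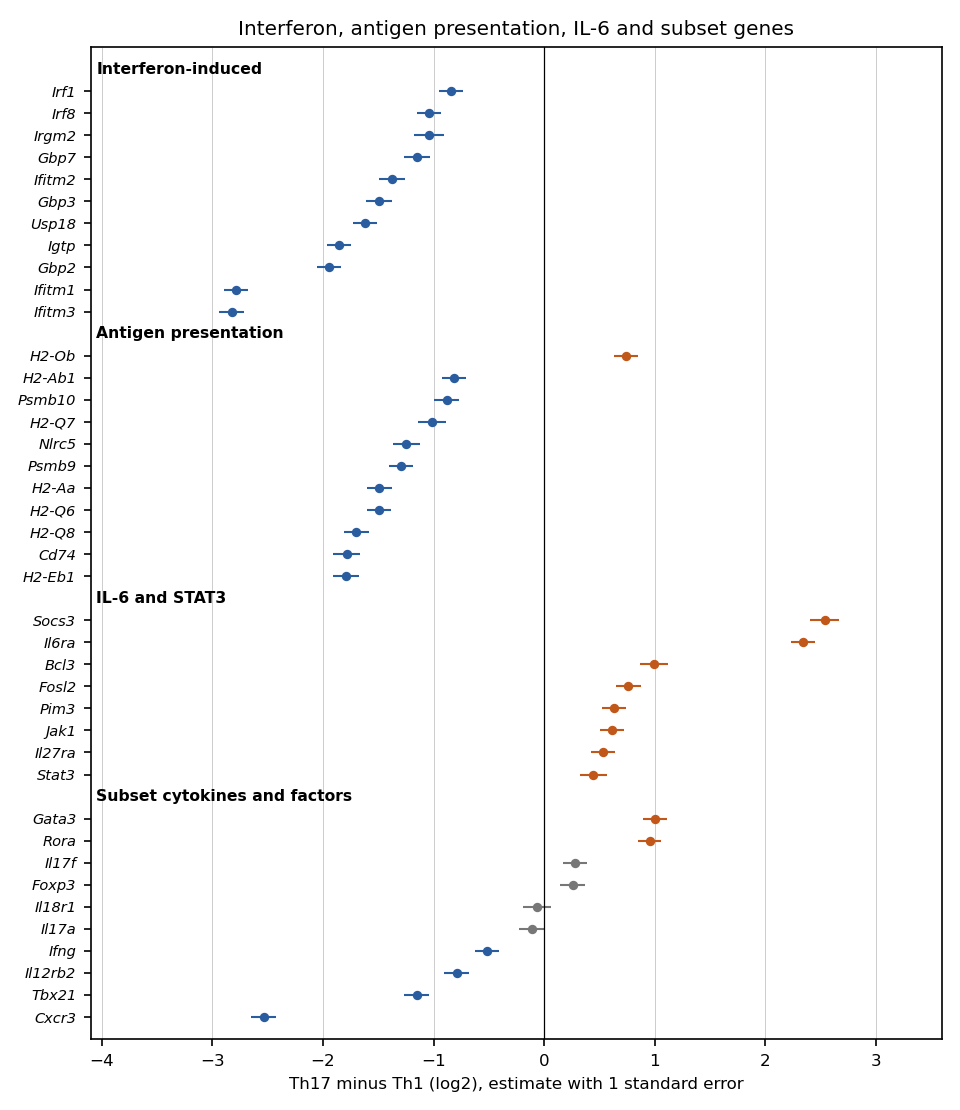
Log2 change, Th17 minus Th1 (x axis), of interferon-induced, antigen presentation, interleukin 6 and subset genes, with bars for 1 standard error of the fit (2 arrays per kind), blue for called lower, orange for called higher and grey for not called. The interferon-induced genes shown lie left of 0, the interleukin 6 pathway genes shown lie right of it with Socs3 at 2.54, and Il17a at -0.11 is among the grey points. For the interferon-induced and interleukin 6 groups only members called in the direction drawn are shown, so their side of 0 followed from the choice. The interferon genes that rose (Slfn1, Slfn2 and Sp100) and members not called, such as Il6st, are left out.

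Under the scaling used, cytotoxic genes were called lower more often than higher, with 10 of 26 lower and 3 (Ctsc, Klrd1 and Hcst) higher. Beside Nkg7 and Fasl, Gzmb, the granule protease granzyme B, had 39.7 and 24.9 in Th17 cells, against 96.3 and 106.6 in Th1 cells (log2 change -1.09 ± 0.13, adjusted p = 3.13e-06). Ctsw and Cst7, a cathepsin and a cystatin of killer cells, fell with log2 changes of -1.10 ± 0.12 and -1.01 ± 0.13. Of apoptosis genes 16 of 41 fell and 5 rose (Bik, Bnip3l, Casp6, Cflar and Mcl1), a lean that was not kept with other scalings (10 higher and 8 lower with each array scaled to its median, and 11 higher and 7 lower without scaling). Mlkl, the executor of necroptosis, had 75.4 and 72.3 in Th17 cells, against 163.1 and 131.5 in Th1 cells (log2 change -0.96 ± 0.11, adjusted p = 1.83e-06). Ctsc, Klrd1, Hcst, Gzmb, Ctsw, Cst7, Bik, Bnip3l, Casp6, Cflar and Mcl1 were not called on uncorrected values floored at 1 (adjusted p 0.054 to 0.238). Klrd1, Hcst, Bik, Bnip3l, Cflar and Mcl1 were not called with 1 or more of an offset of 16 and leaving out 1 of Th17 replicate 1, Th17 replicate 2, Th1 replicate 1 or Th1 replicate 2 (adjusted p 0.0529 to 0.151).

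Housekeeping and growth sets turned with the scaling. Cell cycle genes gave 4 higher (Cdc25b, E2f2, Cdkn2c and Cdkn2d) and 14 lower of 61, but 13 higher and 1 lower with each array scaled to its median, and 17 higher and 1 lower without scaling. Oxidative phosphorylation gave 1 higher (Cox10) and 8 lower of 85, but 15 higher and 2 lower with each array scaled to its median, and 16 higher and 2 lower without scaling. Translation factors and tRNA synthetases gave 0 higher and 8 lower of 86, but 17 higher and 1 lower with each array scaled to its median, and 21 higher and 1 lower without scaling. No direction is given for these lists. Single genes of these and other lists did differ by more. Ckmt1, the mitochondrial creatine kinase, had 51.1 and 44.9 in Th17 cells, against 278.1 and 266.2 in Th1 cells (log2 change -1.94 ± 0.11, adjusted p = 1.42e-10). Cox6b2, an isoform of a cytochrome oxidase subunit known from testis, had 23.9 and 40 in Th17 cells, against 231.8 and 202.5 in Th1 cells (log2 change -1.89 ± 0.12, adjusted p = 7.70e-10). Cdc25b, a phosphatase that starts mitosis, had 145.3 and 148.1 in Th17 cells, against 28.9 and 32.7 in Th1 cells (log2 change 0.93 ± 0.11, adjusted p = 4.69e-06), and Gimap7, a lymphocyte GTPase, 608.1 and 504.9 in Th17 cells, against 1368.4 and 1052.2 in Th1 cells (log2 change -1.39 ± 0.11, adjusted p = 1.49e-08). E2f2, Cdkn2c, Cdkn2d and Cox10 were not called on uncorrected values floored at 1 (adjusted p 0.0659 to 0.225). Cdc25b, Cdkn2d and Cox10 were not called with 1 or more of an offset of 16, other probes and leaving out 1 of Th17 replicate 1, Th17 replicate 2, Th1 replicate 1 or Th1 replicate 2 (adjusted p 0.104 to 0.263).

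**Figure D5:**
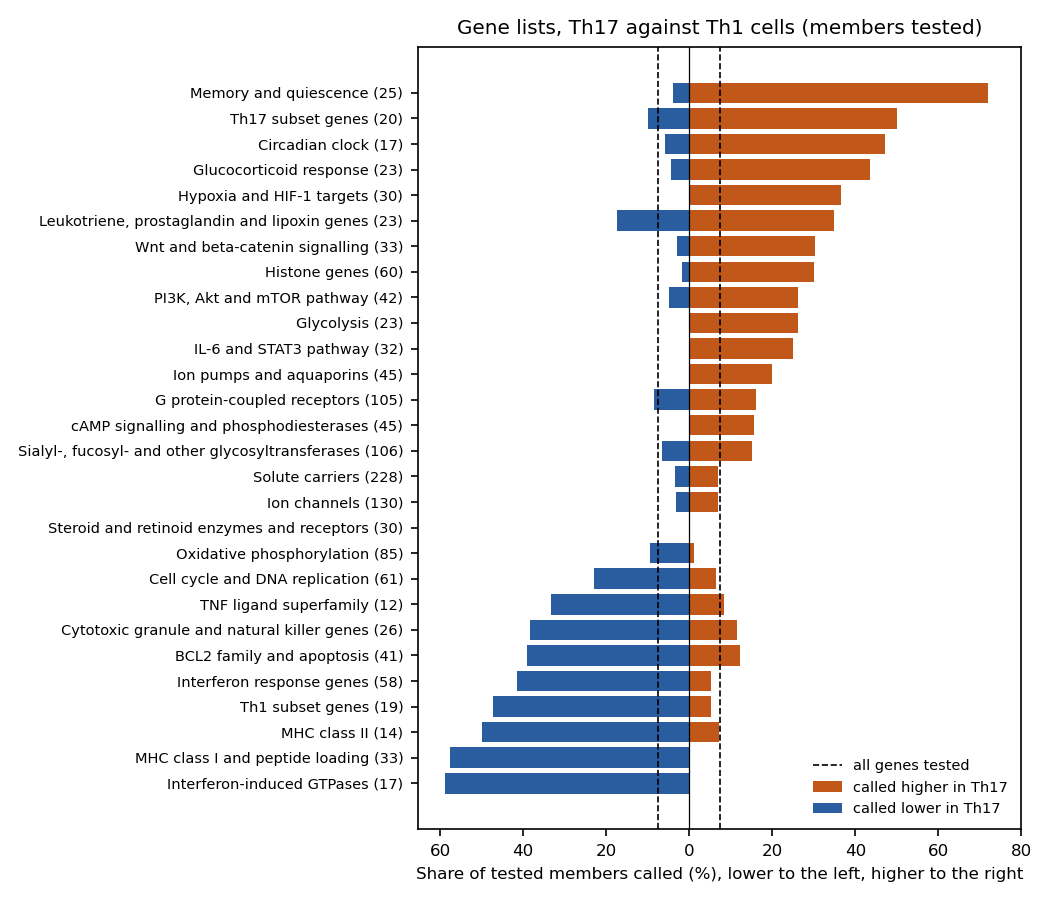
Share of tested members (x axis, percent) called higher (orange, right of 0) and lower (blue, left of 0) in Th17 cells in the gene lists named on the y axis, with the number tested in brackets and dashed lines at the shares over all genes tested (7.53% higher, 7.42% lower). Memory and quiescence (18 of 25 higher) stands at the top and the interferon-induced GTPases (10 of 17 lower) at the bottom, and cell cycle, oxidative phosphorylation and apoptosis genes turn toward higher with each array scaled to its median or without scaling.

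Apart from a set of key genes, only called genes whose Th17 and Th1 arrays did not overlap were eligible for naming. Genes were named by a rule, the 30 largest changes each way, from each list as many as 6 called members, and that set of key genes. Outside it, Abca2, Bik, Bnip3l, Casp6, Cdkn2c, Cdkn2d, Cflar, Cox10, Csnk1a1, Ctsc, Dbp, Ddit4l, Fads6, Foxo1, H2bc4, Hcst, Hif1a, Hsp90aa1, Hspd1, Hspe1, Id3, Ighm, Il6st, Inppl1, Ldha, Lrrc8c, Mcl1, Pla2g4b, Ptges3, Slc2a1, Slfn1, Slfn2, Timeless and Vav3 are named to complete small counts or as reference points and were chosen after their values were seen.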

How the data were processed

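Illumina mouse bead arrays were analysed for 6 samples of RNA, 2 each of Th17, Th1 and Th9 cells, grouped by their treatment labels. The values are intensities as deposited in the authors' value table, on a linear scale and centred near 0, so a background had been removed before deposit, and their scaling is not stated in the sources used here. RNA was extracted with Trizol and RNeasy and amplified to biotin-labelled cRNA, per the labels' protocols. Another deposited table held 6 signal and 6 detection columns that match no sample label and were not used, so detection p-values were not used either.

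Intensities were background-corrected with normexp (offset 50), quantile normalized and taken to log2 with limma 3.58.1 in R 4.3.3. A probe counted as detected above 1.645 times the root mean square of the negative values of its array, and was kept if detected on at least 2 arrays. Probes were named by the platform annotation and current symbols, and each gene took its kept probe of highest mean level. A linear model with a mean per kind was fitted to all 6 arrays (3 residual and 16.2 prior degrees of freedom), and Th17 was contrasted with Th1 by the moderated test of limma with Benjamini-Hochberg adjustment over 12093 genes. Numbers of the repeats did not pair the arrays (correlation of deviations 0.019), so a replicate block was fitted only as an alternative. The members and the 98 lists were chosen with earlier results of these data known. Named genes follow the rule given in the text, and predicted genes with a provisional symbol were passed over. Lists are described by counts and medians, with no set test. Alternatives changed background correction, scaling, filter, probe choice, variance model and arrays fitted, and left out each array in turn. Motifs were counted in the 250 bases before each RefSeq start, matched by symbol for 9579 genes. Figures used matplotlib 3.10.9 in Python 3.11.15. Some items are not reported here.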

Additional observations from a re-analysis of the deposited data

How the results depend on the processing

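The count of 1807 called genes became 1113 with an offset of 16 (563 higher, 550 lower), 316 when normexp and its offset were both dropped and values under 1 set to 1 (146 higher, 170 lower), and 224 against a log2 change of 0.5 (104 higher, 120 lower). Scaling each array to its median gave 2738 (2492 higher, 246 lower), and no scaling 3182 (2970 higher, 212 lower). Leaving out 1 array in turn gave 1011 to 1661 genes, 518 to 825 higher and 493 to 836 lower, with 1155 without Th17 replicate 1 and 1011 without Th17 replicate 2. With the replicate block 1769 genes were called (886 higher, 883 lower), so it moved no count by much, and 4 of 456 named calls were lost. Other filters, probe means, variance models and the 4 arrays alone gave 1507 to 1863. Of the 456 named calls, 326 were lost on those uncorrected values floored at 1, 311 against a log2 change of 0.5, 90 with an offset of 16 and 49 to 93 with an array left out. Scaling each array to its median lost 90 and turned 2, and no scaling lost 91 and turned 10. The cause was not tested.

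Turned log2 changes, none of them called except Cd8b1, were as follows. With each array scaled to its median they were 0.15 for Hif1a, 0.277 for Il18r1, 0.00393 for Rpl4 and 0.00285 for Slc39a6. Without scaling they were 0.0333 for Atf4, 0.0139 for Echs1, 0.19 for Hif1a, 0.00672 for Idh2, 0.318 for Il18r1, 0.0147 for Lrrc8c, 0.0387 for Psmg1, 0.0178 for Ptges3, 0.0452 for Rpl4, 9.37e-04 for Sdhd, 0.0441 for Slc39a6 and 0.0268 for Uqcc1. The mean of all probes gave 0.0346 for Il18r1. Of 150 named called genes with another probe detected on all 4 arrays, 142 kept the direction on the brightest such probe (85 called) and 8 turned (1 called). These were Ccr6 0.113, Cd8b1 0.362, Fpgs 0.163, Nampt 0.105, Rnf135 0.146, Rpl4 0.0147, Sp100 -0.112 and Tnfrsf13b -0.115, and the uncalled Il18r1 had 0.132. This check was chosen after seeing the data. With an array left out, Ighm ranged between -0.0914 and 0.202, Il17a between -0.227 and 0.00873, Il18r1 between -0.152 and 0.0265, and Il6st between -0.0598 and 0.336.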
